A study of Rattus norvegicus with 8 samples.

Results

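The myosin heavy and light chain paralogs of the rat heart are described here through every probe set of 10 genes (Myh6, Myh7, Myh10, Myl1, Myl2, Myl3, Myl4, Myl6, Myl7 and Myl9). A probe set is the group of oligonucleotide probes on the array that measures a transcript. Probe sets were taken when their array annotation named a member by its current symbol or an older synonym, and 15 of the 31042 probe sets on the array did so. Of these, 12 carried 1 gene and 3 were shared by several genes: a pair shared by Myh6 and Myh7, and a single probe set shared by Myl6, Myl6b and Myl6l. Thus 9 of the 10 genes had a probe set of their own, and Myl6 was seen only through the shared probe set. Myl2 is also an old name of Myl11, the fast skeletal regulatory light chain. Myl11 is a different gene and was counted among the other light chains.

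The study compared 2 heart tissues, each as 4 pools hybridised to 1 array per pool: the atrial appendage (atrium) and the ventricular free wall (ventricle). All tissue came from 13 untreated male Sprague-Dawley rats of 225 to 275 g, whose age was not given in the sources used here. Which rats entered which pool was not stated, and that both tissues were from the left side rests on the study's methods. Values are RMA signals on a log2 scale, so a difference of 1 is a doubling. They ran from 1.90 to 13.77 over the series, with array medians of 4.80 to 4.81. The typical SD between pools was 0.117 in the atrium and 0.0986 in the ventricle (median over all probe sets). A probe set was called when its Benjamini-Hochberg adjusted p from limma, over all 31042 probe sets, was under 0.05, and the study thresholds were applied as a limma adjusted p under 0.0001 with a fold of at least 1.8. The study itself set its false discovery rate with the SAM statistic.

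A sarcomeric myosin molecule is built of a pair of heavy chains, whose heads split ATP and pull on actin, and each head carries an essential and a regulatory light chain that stiffen its lever arm. The alpha heavy chain, encoded by Myh6, is the faster ATPase, and the beta heavy chain, encoded by Myh7, is the slower and more economical chain. Atrial muscle is known for its own light chains, Myl4 (essential) and Myl7 (regulatory), and ventricular muscle for Myl3 (essential) and Myl2 (regulatory). The adult rodent ventricle, unlike that of larger mammals, uses mainly the alpha heavy chain. Myh10 (non-muscle myosin IIB heavy chain), Myl6 (essential) and Myl9 (regulatory) belong to non-muscle and smooth muscle myosin, and Myl1 encodes the essential light chains of fast skeletal muscle.

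The 250 bases before the RefSeq start are shown for Myl7, Myl4 and Myl3, cardiac light chain genes that differed between the tissues in opposite directions, so that the sequence next to their starts can be seen beside their values. Windows of the GRCr8 build were matched by symbol for 8 of the 10 genes. Capitals mark matches, on either strand, to CATTCC (the M-CAT element of TEAD factors), AGGTGN (a T-box core), AAGTG (an Nkx2-5 core), CArG (serum response factor) or MEF2. The windows were chr14:84996625-84996874 on the minus strand for Myl7, chr10:89975900-89976149 on the plus strand for Myl4 and chr8:119616844-119617093 on the plus strand for Myl3.
Myl7: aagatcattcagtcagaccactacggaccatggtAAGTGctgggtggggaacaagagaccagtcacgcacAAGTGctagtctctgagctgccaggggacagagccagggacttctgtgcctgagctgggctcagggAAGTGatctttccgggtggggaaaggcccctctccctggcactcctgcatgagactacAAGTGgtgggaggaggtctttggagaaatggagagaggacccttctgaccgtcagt
Myl4: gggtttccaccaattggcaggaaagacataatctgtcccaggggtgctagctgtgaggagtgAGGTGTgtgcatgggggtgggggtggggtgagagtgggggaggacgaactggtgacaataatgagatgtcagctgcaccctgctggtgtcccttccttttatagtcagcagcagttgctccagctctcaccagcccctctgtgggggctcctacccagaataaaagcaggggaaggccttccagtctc
Myl3: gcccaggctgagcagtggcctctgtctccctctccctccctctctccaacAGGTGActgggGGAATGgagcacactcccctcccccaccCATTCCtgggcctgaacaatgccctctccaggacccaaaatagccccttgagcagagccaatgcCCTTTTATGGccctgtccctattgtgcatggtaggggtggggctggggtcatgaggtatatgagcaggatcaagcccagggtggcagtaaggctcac

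Myl7 held 4 AAGTG matches, and 2 of these each lay within a separate E-box match (CANNTG). Of the 33465 RefSeq windows of this length, 0.263% held 4 or more AAGTG matches. At least 1 AAGTG was present in 40.6% of all windows. Myl3 held 2 CATTCC matches and 1 CArG match. At least 2 CATTCC matches were found in 0.902% of windows and at least 1 in 12.1%, and CArG was found in 1.5%. Its single AGGTGN match, a sequence present in 44.3% of windows, overlapped an E-box match, a sequence present in 65.5%. Myl4 held 1 AGGTGN match and 3 E-box matches outside the capitals. None of the 3 windows held a GATAA match (23.5% of windows) or a MEF2 match (2.96%). Among the other members, Myh6 and Myh10 held 1 CATTCC match each, and 1 of the windows of Myl1 held a MEF2 match. These are matches of letters in short windows and are not shown to be sites of binding. The shares at 4 AAGTG and 2 CATTCC matches used the counts seen here as cut-offs. No such share was computed for multiple matches of the other motifs.

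Both cardiac heavy chain genes also carry a microRNA inside the gene. RefSeq places rno-miR-208a-3p inside Myh6 (chr15:32395568-32395585, minus strand) and rno-miR-208b-3p inside Myh7 (chr15:32421648-32421665, minus strand). Their mature sequences are shown because they are part of the gene pair that is compared here, with the seed (bases 2 to 8) in capitals. The seed is shared by both, and the microRNAs themselves were not measured.
rno-miR-208a-3p: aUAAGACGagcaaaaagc
rno-miR-208b-3p: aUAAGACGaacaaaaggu

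Of the 15 probe sets, 6 were higher in the atrium, 6 were lower in the atrium and 3 were not called. Over all probe sets on the array, 18.6% were called higher and 20.1% lower. At the study thresholds 7 of the 15 passed (4 higher and 3 lower in the atrium), against 4.51% of all probe sets, and with SAM in place of limma 8 passed, Myl3 being the addition. Atrial and ventricular pools did not overlap for 12 of the 15, against 37% of all probe sets. The genes were chosen with results of these data known, so these counts describe them and do not test them. The median difference over all probe sets was -0.052, and values below are given without subtracting it. In tissue RNA, fewer cells of a type and less RNA per cell cannot be told apart.

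**Figure D1:**
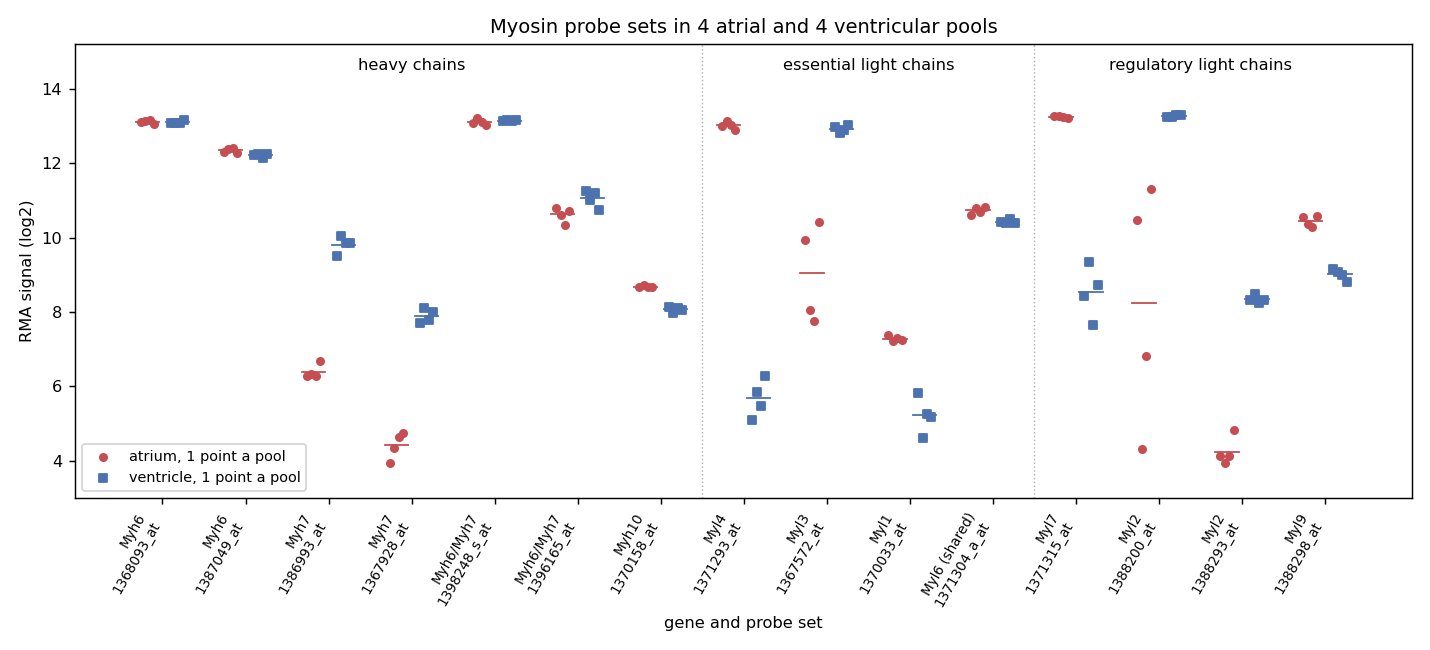
RMA signal (log2, vertical axis) of the 15 myosin probe sets (horizontal axis, by gene and probe set), with atrial pools as circles and ventricular pools as squares, 1 point per pool and a line at the mean of 4 pools. Myl4 and Myl7 lie near 13 in the atrium, Myl3 and the brighter Myl2 probe set lie near 13 in the ventricle, and the atrial points of the brighter Myl2 probe set are spread from 4.32 to 11.30.

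Among the heavy chains, Myh7 differed strongly between the tissues and the own probe sets of Myh6 were not called. The brighter Myh7 probe set (1386993_at) had 6.28, 6.32, 6.27 and 6.68 in atrial pools 1 to 4, against 9.50, 10.03, 9.85 and 9.84 in ventricular pools 1 to 4. It was 10.7-fold lower in the atrium (difference -3.42, SE 0.12, limma adjusted p = 1.5e-08). The second Myh7 probe set (1367928_at) had 3.94, 4.34, 4.63 and 4.75 in the atrial pools, against 7.70, 8.10, 7.79 and 7.99 in the ventricular pools. Its difference was -3.48 (SE 0.16, 11.1-fold, limma adjusted p = 9e-08), so that both probe sets gave nearly the same fold. The second was dimmer by 1.98 ± 0.29 in the atrium and 1.91 ± 0.11 in the ventricle (SD, n = 4 each). In the atrium it lay near log2 4, the low end of the scale, where lower levels may not be resolved. In every atrial pool, both Myh7 probe sets were below every ventricular pool.

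Myh6 was measured at the top of the scale in both tissues. Its brighter probe set (1368093_at) had 13.10, 13.12, 13.15 and 13.04 in the atrial pools, against 13.09, 13.09, 13.09 and 13.16 in the ventricular pools. The difference was -0.0049 with a 95% confidence interval of -0.13 to 0.12 (limma adjusted p = 0.95), and the pools overlapped. Only 11 of 31042 probe sets were brighter on average in the atrium and 10 in the ventricle, and whether signal so near the top still grew in proportion to RNA was not tested. The second Myh6 probe set (1387049_at) had 12.31, 12.38, 12.40 and 12.27 in the atrial pools, against 12.22, 12.24, 12.14 and 12.25 in the ventricular pools. The atrial pools were all above the ventricular pools, but the difference of 0.13 (95% confidence interval -0.0033 to 0.26) did not pass the limma test (adjusted p = 0.11). A trended and robust limma fit did call it (adjusted p = 0.013), as did the SAM statistic (q = 0.025).

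The probe sets shared by Myh6 and Myh7 cannot be assigned to either gene. The brighter of them (1398248_s_at) had 13.08, 13.21, 13.11 and 13.02 in the atrial pools, against 13.12, 13.16, 13.12 and 13.15 in the ventricular pools, and was not called (difference -0.032, limma adjusted p = 0.7). The dimmer (1396165_at) had 10.80, 10.61, 10.34 and 10.72 in the atrial pools, against 11.25, 11.02, 11.19 and 10.75 in the ventricular pools. It was lower in the atrium (difference -0.43, SE 0.12, limma adjusted p = 0.019) although atrial pool 1 lay above ventricular pool 4. That call was lost without atrial pool 3 (adjusted p = 0.052), without ventricular pool 1 (0.056) or without ventricular pool 3 (0.056).

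Myh10, the non-muscle heavy chain, was modestly higher in the atrium. It had 8.68, 8.73, 8.66 and 8.67 in the atrial pools, against 8.14, 7.97, 8.10 and 8.05 in the ventricular pools. The difference of 0.62 (SE 0.059, 1.53-fold, limma adjusted p = 1.6e-05) passed the test, but its fold was below the 1.8 of the study thresholds.

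Among the essential light chains, Myl4 and Myl1 were higher in the atrium and Myl3 was lower. Myl4, the atrial essential light chain, had 12.99, 13.12, 13.01 and 12.90 in the atrial pools, against 5.11, 5.86, 5.48 and 6.28 in the ventricular pools. It was 160-fold higher in the atrium (difference 7.33, SE 0.20, limma adjusted p = 2.2e-09). Each ventricular pool thus held less than 1% of the mean atrial signal, between 0.419% and 0.94%.

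Myl3, the ventricular essential light chain, moved the other way, and its atrial pools differed widely. It had 9.93, 8.06, 7.75 and 10.43 in the atrial pools, against 12.96, 12.82, 12.89 and 13.03 in the ventricular pools. The difference was -3.89 (SE 0.51, 14.8-fold, limma adjusted p = 0.00015), which passed the 0.05 threshold but not an adjusted p under 0.0001 in limma. With the SAM statistic, Myl3 passed the study thresholds. Atrial pools 1 and 4 held 12.5% and 17.7% of the mean ventricular signal, and atrial pools 2 and 3 held 3.42% and 2.76%.

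Myl1, the fast skeletal essential light chain, was higher in the atrium, at 7.37, 7.22, 7.29 and 7.25 in the atrial pools, against 5.83, 4.60, 5.25 and 5.19 in the ventricular pools. The difference was 2.07 (SE 0.20, 4.19-fold, limma adjusted p = 1.6e-05), and all atrial pools lay above all ventricular pools. The probe set shared by Myl6, Myl6b and Myl6l (1371304_a_at) had 10.61, 10.79, 10.69 and 10.81 in the atrial pools, against 10.41, 10.38, 10.50 and 10.38 in the ventricular pools. It was 1.24-fold higher in the atrium (difference 0.31, SE 0.067, limma adjusted p = 0.0043), which is a small difference beside those of Myl4, Myl3 and Myl1.

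Among the regulatory light chains, Myl7 and Myl9 were higher in the atrium and Myl2 was lower. Myl7, the atrial regulatory light chain, had 13.26, 13.26, 13.25 and 13.21 in the atrial pools, against 8.44, 9.33, 7.65 and 8.72 in the ventricular pools. It was 26.2-fold higher in the atrium (difference 4.71, SE 0.27, limma adjusted p = 3.6e-07). The atrial pools were nearly equal while the ventricular pools varied, with 2.07% to 6.61% of the mean atrial signal.

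Myl9, a light chain of smooth muscle and non-muscle myosin, had 10.55, 10.37, 10.29 and 10.59 in the atrial pools, against 9.16, 9.07, 8.98 and 8.81 in the ventricular pools. The difference was 1.45 (SE 0.093, 2.73-fold, limma adjusted p = 8.9e-07), and the pools did not overlap.

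Myl2, the ventricular regulatory light chain, had a pair of probe sets that gave different pictures of the atrial pools. The brighter (1388200_at) had 10.48, 4.32, 6.82 and 11.30 in the atrial pools, against 13.23, 13.23, 13.30 and 13.28 in the ventricular pools. Its difference was -5.03 (SE 1.23, 32.7-fold, limma adjusted p = 0.008), past the 0.05 threshold but not past the study thresholds in limma or with SAM (q = 0.00039). The dimmer (1388293_at) had 4.12, 3.94, 4.12 and 4.82 in the atrial pools, against 8.32, 8.48, 8.25 and 8.32 in the ventricular pools. Its difference was -4.09 (SE 0.16, 17.1-fold, limma adjusted p = 2.6e-08). Within the ventricle the brighter probe set exceeded the dimmer by 4.75 to 5.05 in all pools, whereas in atrial pools 1 to 4 the gap was 6.36, 0.39, 2.70 and 6.48. The dimmer probe set lay near log2 4, the low end of the scale, in the atrium, where lower levels may not be resolved. In atrial pools 1 and 4 the gap was wider than in any ventricular pool. The higher level of pool 1 at the brighter probe set was not seen at the dimmer, which had 4.12 in pools 1 and 3 alike. Why the probe sets differed in these pools was not tested.

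**Figure D2:**
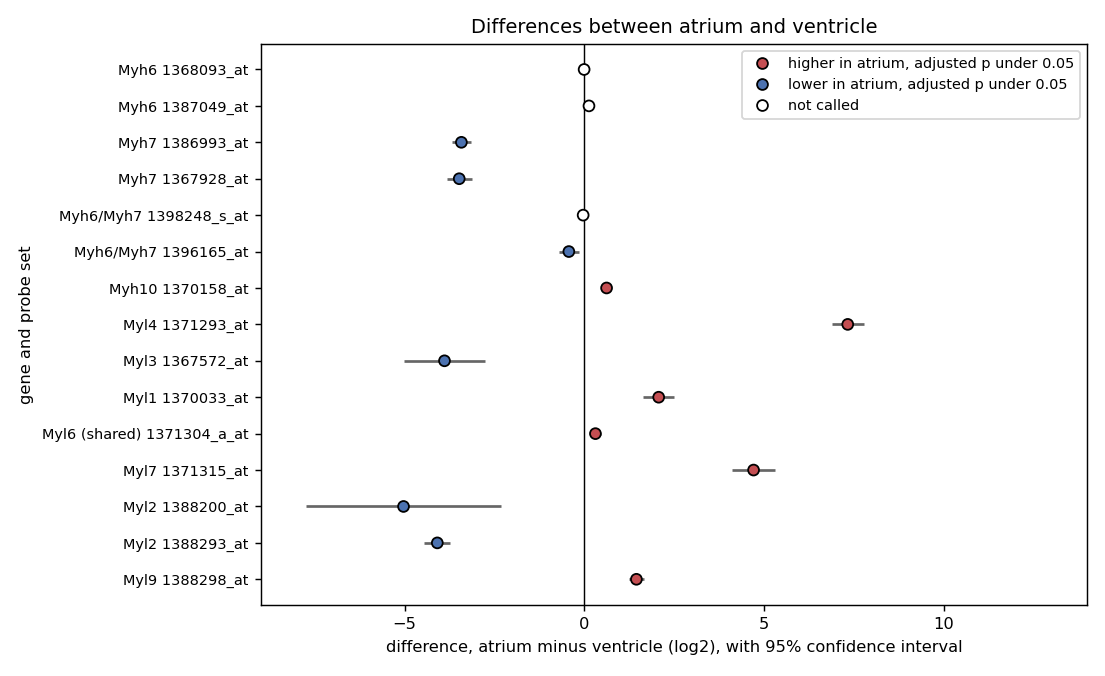
Difference between atrium and ventricle (horizontal axis, mean log2 signal of 4 atrial pools minus mean of 4 ventricular pools) for each myosin probe set (vertical axis), with bars for the 95% confidence interval from limma. Myl4 has the highest difference at 7.33, and the brighter Myl2 probe set has the lowest difference at -5.03 and the widest interval, from -7.74 to -2.32.

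The spread of the brighter Myl2 probe set between atrial pools was among the highest on the array. It had an SD of 3.25 over the 4 atrial pools, and 1 probe set of 31042 had a higher SD, while its SD in the ventricle was 0.034. The dimmer Myl2 probe set had an SD of 0.39 in the atrium, where 556 probe sets had a higher SD. Myl3 had an SD of 1.34 in the atrium and 0.088 in the ventricle, and 25 probe sets had a higher SD in the atrium. In the ventricle it was the atrial light chains that varied: Myl7 had an SD of 0.025 in the atrium and 0.70 in the ventricle, where 21 probe sets had a higher SD. Myl4 had an SD of 0.091 in the atrium and 0.50 in the ventricle (53 probe sets higher), and Myl1 had 0.067 in the atrium and 0.50 in the ventricle (54 probe sets higher). For the brighter Myl2 probe set, Myl3, Myl4 and Myl7, the tissue with the smaller SD was at the top of the scale, with 6 to 15 probe sets brighter on average. Whether the spread was compressed there was not tested.

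In linear signal, the brighter Myl2 probe set in atrial pools 1 to 4 was 14.5%, 0.204%, 1.15% and 25.7% of the mean ventricular signal. The fold at this probe set therefore depended on single pools. That of the dimmer Myl2 probe set varied less, with a limma adjusted p of at most 2.2e-06 over the alternative limma fits. In the atrium, however, the dimmer probe set lay near log2 4, the low end, which may limit both its spread and its fold. The following values are of the brighter probe set. Without atrial pool 2 the difference was -3.73, without atrial pool 3 it was -4.56, without atrial pool 1 it was -5.78 and without atrial pool 4 it was -6.05. With each of the 8 pools left out in turn, the limma adjusted p lay between 0.0011 (without atrial pool 4) and 0.027 (without atrial pool 3), and the trended and robust limma fit gave 0.05, at the threshold. Atrial pools 1 and 4 were the highest atrial pools at the brighter Myl2 probe set and at Myl3, so leaving both out had to widen these differences. They were then -7.69 for the brighter Myl2 probe set and -5.02 for Myl3, given without a test.

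**Figure D3:**
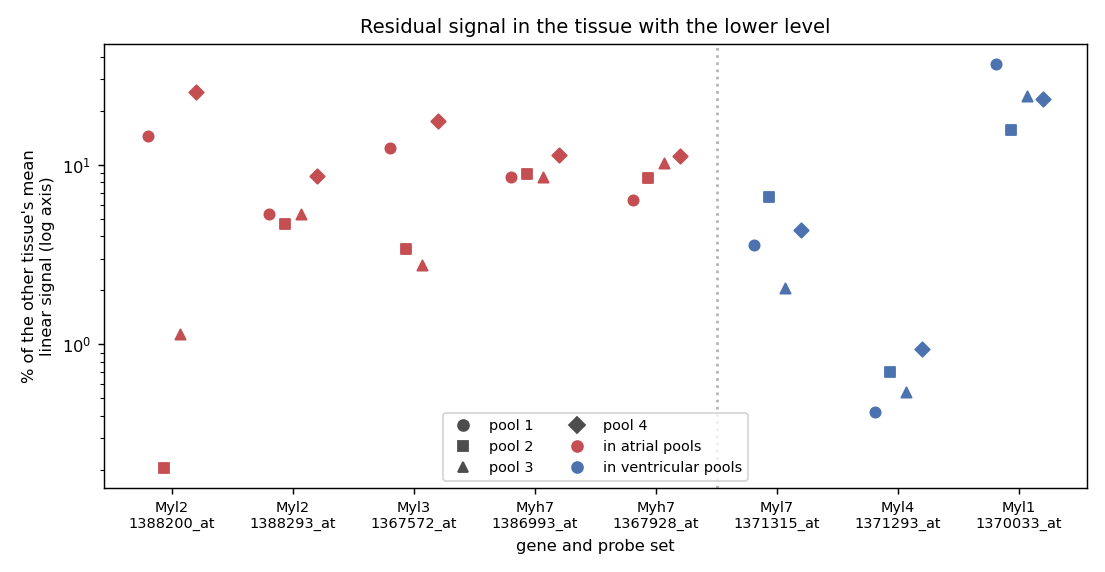
Linear signal in the tissue with the lower level as a percentage of the mean of the other tissue (vertical axis, log scale), for 8 myosin probe sets (horizontal axis), with atrial pools for Myl2, Myl3 and Myh7 and ventricular pools for Myl7, Myl4 and Myl1, and 1 symbol per pool number. Atrial pools 1 and 4 lie above pools 2 and 3 for the brighter Myl2 probe set and for Myl3, with 25.7% and 17.7% in pool 4.

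The higher level in atrial pools 1 and 4 was also seen in Rpl3l and Gpsm1, the genes nearest in profile to Myl2 and Myl3. Nearness was measured over these same arrays, so their shared order was in part set by how they were picked. Of the other near genes, Penk and LOC102553868 had the order. Irx4 (3.37, 3.24, 3.53 and 3.92 in atrial pools 1 to 4) did not. All these Irx4 values lay below log2 4, the low end, where an order of pools may not be resolved. Rpl3l, a ribosomal protein gene of striated muscle, had 5.63, 4.04, 4.48 and 5.78 in atrial pools 1 to 4 and a mean of 10.19 ± 0.14 in the ventricle (SD, n = 4). Gpsm1, a modulator of G protein signalling, had 5.68, 5.33, 4.89 and 5.94 in the atrial pools and a mean of 8.97 in the ventricle. Of the 582 probe sets lower in the atrium at the study thresholds, atrial pools 1 and 4 were both above pools 2 and 3 in 136 (23.4%), and of the 818 higher ones in 50 (6.11%). Over all probe sets the share was 16.3%. Myh7 did not show this order, since its atrial pools 1, 2 and 3 lay within 6.27 to 6.32 at the brighter probe set.

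Markers of other tissues in the atrial pools were set beside these values. Over all genes at 1 probe set each, 22.5% were called higher and 22.5% lower in the atrium. Of 10 ventricular muscle markers, 6 were lower and 1 was higher in the atrium. Their median in atrial pools 1 to 4 was -0.98, -1.20, -1.25 and -1.12 relative to the ventricular mean. Fhl2, Rpl3l, Hey2 and Kcnj2 had atrial pools 1 and 4 above pools 2 and 3, and Irx3, Irx4, Irx5, Lrrc10, Pln and Cpne5 did not. In the atrium Irx3, Irx4 and Kcnj2 averaged below log2 4, where an order of pools may not be resolved. Of 7 adipocyte markers, 4 were higher in the atrium and 3 were not called, and their median in atrial pools 1 to 4 was 0.79, 2.40, 2.01 and 3.50. Thus pool 4 was highest and pool 1 lowest for the adipocyte markers. The 4 called genes were 5.37-fold (Cfd) to 9.41-fold (Adipoq) higher in the atrium. The summed linear signal of the adipocyte list was 1677 to 4811 in the atrial pools and 2334 to 2540 in the ventricular pools. This sum rests mostly on Fabp4, which was not called (10.91 ± 0.51 in the atrium and 11.10 ± 0.064 in the ventricle, limma adjusted p = 0.49). Of the same list, Lep, which encodes leptin, was below the low end in both tissues (3.31 ± 0.37 in the atrium and 3.27 ± 0.22 in the ventricle, SD, n = 4 each). The part of the tissue make-up of the pools in the spread of Myl2 and Myl3 was not tested.

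The composition of each chain class was described as the share of each gene in the summed linear signal of the class, with 1 probe set per gene. Shares are of array signal and not of molecules, since probe sets differ in how strongly they bind. The leading gene of each class also lay at the top of the scale, where it was not tested whether signal still grew in proportion to RNA. The same limit holds for the folds and ratios of these genes. In the heavy chain class Myh6 took 94.7% ± 0.281 in the atrium and 88.3% ± 1.08 in the ventricle (SD, n = 4 each). Myh7 took 0.914% ± 0.159 in the atrium and 9.04% ± 1.22 in the ventricle, and Myh10 took 4.43% ± 0.147 and 2.69% ± 0.179 in atrium and ventricle. The pools of both tissues did not overlap for any of these 3 shares. Shares of a class add up to the whole, so a lower share of 1 gene raises the others, and these are not separate results. The Myh6 probe set used here was itself not called (difference -0.0049, limma adjusted p = 0.95).

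Essential light chain signal was mostly Myl4 in the atrium and mostly Myl3 in the ventricle. Myl4 took 75.1%, 80.3%, 80.3% and 69.7% in atrial pools 1 to 4, against 0.367%, 0.673%, 0.489% and 0.793% in the ventricular pools. Myl3 took 8.97%, 2.4%, 2.08% and 12.5% in the atrial pools, against 84.6%, 83.7%, 83.1% and 85.2% in the ventricular pools. The probe set shared by Myl6, Myl6b and Myl6l kept a like share in both, 15.7% ± 0.899 in the atrium and 14.8% ± 1.03 in the ventricle, with pools that overlapped. Myl1 took 1.44% ± 0.0961 in the atrium and 0.418% ± 0.136 in the ventricle.

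Regulatory light chain signal was mostly Myl7 in the atrium, with 77.1%, 87.9%, 87.7% and 70% in pools 1 to 4, against 3.29%, 5.95%, 1.87% and 3.91% in the ventricular pools. Myl2 took 11.2%, 0.18%, 1.02% and 18.6% in the atrial pools, against 91.3%, 89.1%, 93.4% and 91.9% in the ventricular pools. Myl9 took 11.6% ± 0.289 in the atrium and 4.81% ± 0.536 in the ventricle. The share of Myl9 lay within 11.3% to 11.9% in the atrial pools.

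**Figure D4:**
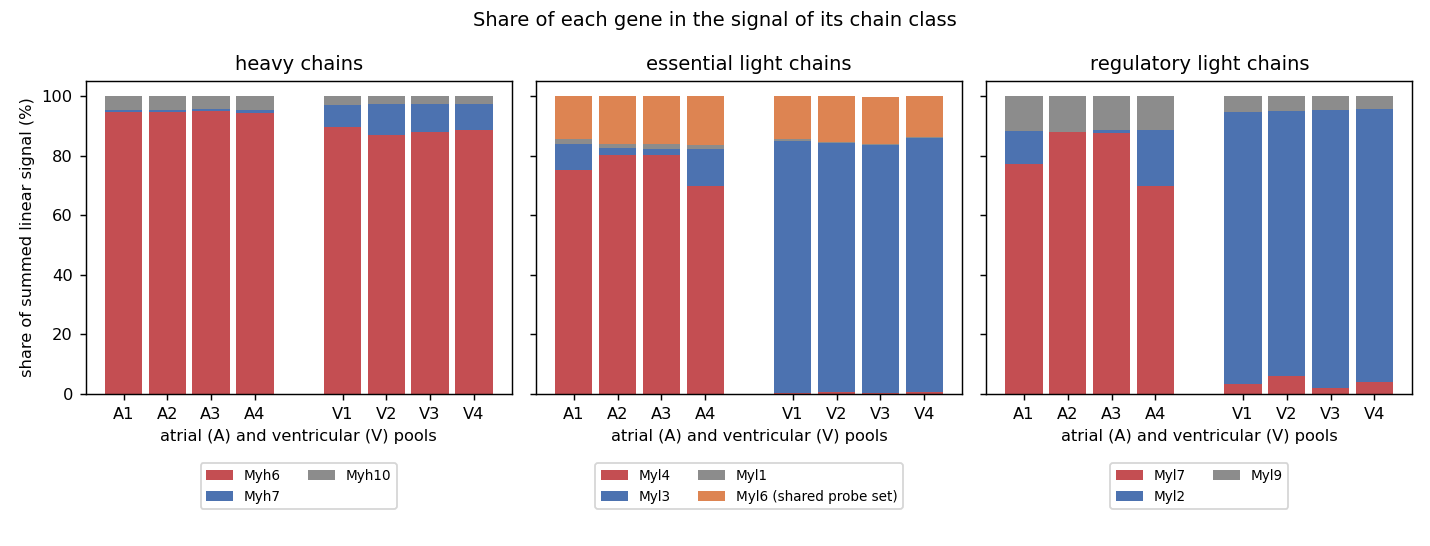
Share of each gene in the summed linear signal of its chain class (vertical axis, %) in each atrial (A1 to A4) and ventricular (V1 to V4) pool, with 1 probe set per gene and 1 panel per class. Myh6 holds most of the heavy chain signal in both tissues (94.7% and 88.3% on average in atrium and ventricle), whereas the leading light chains differ between atrium and ventricle in both classes.

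The balance within each cardiac pair was tested as a log2 ratio of signals within an array, in which the scaling of the array cancels. Myh6 minus Myh7 was 6.71 ± 0.24 in the atrium and 3.30 ± 0.22 in the ventricle (difference 3.41). Myl7 minus Myl2 was 5.02 ± 3.26 in the atrium and -4.73 ± 0.72 in the ventricle (difference 9.74). Myl4 minus Myl3 was 3.97 ± 1.41 in the atrium and -7.24 ± 0.49 in the ventricle (difference 11.21; SD, n = 4 each for all 3 ratios). For each ratio all atrial pools lay above all ventricular pools, and the two-sided exact permutation test gave p = 0.0286, the smallest that 70 arrangements allow, and 0.0286 after adjustment over the 3 ratios. Probe sets of a pair differ in how strongly they bind, so the difference of a ratio between the tissues is the measurement here, and its sign within a tissue is not.

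The genes whose profile over the 8 arrays lay closest to that of a member were named by the root mean square distance between profiles centred on their own means. For Myl4 these were Mybphl (0.38), a homologue of myosin binding protein H, Sln (0.38), the sarcolipin that inhibits the calcium pump, and Atp1b4 (0.71). Mybphl averaged 10.58 in the atrium and 3.75 in the ventricle, and Sln averaged 12.76 and 4.81 in atrium and ventricle. For Myl7 the closest were Sytl2 (0.42), Vsnl1 (0.45) and Msln (0.49), the last of which encodes mesothelin, a marker of the mesothelial surface. For Myh7 they were Scn4b (0.21), Kcnip2 (0.21), a subunit of the transient outward potassium channel, and Tuba8 (0.22). For Myl3 they were Gpsm1 (0.59), Penk (0.60), the precursor of enkephalins, and LOC102553868 (0.66). For Myl2 no gene was close: the nearest, Rpl3l (1.48), Penk (1.85) and Irx4 (1.92), lay farther away than the third gene of any of these other members. For Myh6, whose profile was nearly flat, Ndufa4 (0.024), Wdr82 (0.025) and Vps4a (0.025) were nearest.

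Other myosin genes were described through 1 probe set per gene, and over all 14217 genes so measured 22.5% were called higher and 22.5% lower in the atrium, with a median difference of -0.041. Of 9 other heavy chain genes, 4 were lower in the atrium and 5 were not called (median difference -0.22). Among the lower ones, Myh3 lay below log2 4 in both tissues (2.98 ± 0.090 in the atrium and 3.21 ± 0.072 in the ventricle, limma adjusted p = 0.02). Its call was lost in 2 of 8 fits that left out 1 pool and with quantile normalization between arrays. Myh11, the smooth muscle heavy chain, was 2.19-fold lower (7.24 ± 0.065 in the atrium and 8.37 ± 0.10 in the ventricle, limma adjusted p = 6.3e-07). Myh9, the non-muscle IIA heavy chain, was 1.43-fold lower (8.56 ± 0.14 in the atrium and 9.07 ± 0.065 in the ventricle, limma adjusted p = 0.00048), whereas its paralog Myh10 was higher. The probe set annotated as Myh1, a fast skeletal heavy chain, had 10.35 ± 0.17 in the atrium and 11.04 ± 0.13 in the ventricle (limma adjusted p = 0.00023). The fast skeletal genes Myh2, Myh4 and Actn3 lay below log2 4 in both tissues, and whether the Myh1 probe set also measures other heavy chains was not tested.

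Of 3 other light chain genes, 1 was lower in the atrium, Myl12b (9.08 ± 0.054 in the atrium and 9.30 ± 0.061 in the ventricle, limma adjusted p = 0.015), a non-muscle regulatory chain. Its close paralog Myl12a had 11.03 ± 0.076 in the atrium and 11.15 ± 0.037 in the ventricle (limma adjusted p = 0.14). Myl11, which carries Myl2 as an old name, averaged below log2 4 in both tissues, at 3.49 ± 0.11 in the atrium and 3.68 ± 0.33 in the ventricle.

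Among 12 genes that phosphorylate regulatory light chains or remove the phosphate, 4 were higher and 2 lower in the atrium (median difference 0.12). Mylk3, the cardiac light chain kinase, was higher (11.34 ± 0.13 in the atrium and 10.91 ± 0.070 in the ventricle, limma adjusted p = 0.0013). The skeletal muscle kinase Mylk2 was lower (difference -0.44, limma adjusted p = 0.0075). The smooth muscle kinase Mylk was also called lower (difference -0.47, limma adjusted p = 0.035), but its atrial pool 4 (8.88) was above all ventricular pools (8.75 to 8.86), and the call was lost in 7 of 8 fits that left out 1 pool, all but the fit without atrial pool 4. SAM called 7 genes of the list higher. Ppp1r12a, the targeting subunit of myosin phosphatase, was higher (difference 0.58, limma adjusted p = 7.4e-05), and so was Dapk3, a kinase that acts on that subunit and on the light chain (difference 0.73, limma adjusted p = 3.1e-05).

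Of 11 genes that bind the thick filament or fold myosin, 2 were higher and 2 lower in the atrium (median difference -0.054). The higher ones were Mybphl (difference 6.82, limma adjusted p = 1.5e-11) and Mybpc1, the slow skeletal myosin binding protein C (difference 1.39, limma adjusted p = 2.3e-05). The lower ones were Nrap (difference -0.83, limma adjusted p = 2.8e-05) and Mybpc3, the cardiac myosin binding protein C (difference -0.28, limma adjusted p = 0.0096). The myosin chaperone Unc45b had 9.91 ± 0.11 in the atrium and 9.76 ± 0.013 in the ventricle and was not called (limma adjusted p = 0.1).

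Among 26 genes known to regulate cardiac myosin genes, 8 were higher and 8 lower in the atrium, with a median difference of -0.0080. The T-box factor Tbx5 (difference 2.80, limma adjusted p = 2.5e-08) and the nuclear receptors Nr2f2 (2.01, 2.6e-08) and Nr2f1 (0.71, 0.00019), which are known for the atrial programme, were higher. The Iroquois factors Irx3 (difference -4.59, limma adjusted p = 1.9e-09) and Irx4 (-4.21, 7.5e-09) and the repressor Hey2 (-1.75, 1.1e-06), known for the ventricular programme, were lower. Thrb, a thyroid hormone receptor, was slightly higher (difference 0.22, limma adjusted p = 0.032), a call lost in 7 of 8 fits that left out 1 pool, all but the fit without atrial pool 4, and Thra had 7.31 ± 0.071 in the atrium and 7.16 ± 0.050 in the ventricle (limma adjusted p = 0.068).

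The tissue labels were checked against markers other than the myosins. All 8 measured atrial muscle markers were higher in the atrium (median difference 3.31), among them Nppa, which encodes atrial natriuretic peptide (13.73 ± 0.042 in the atrium and 10.04 ± 0.21 in the ventricle, limma adjusted p = 2e-09). Of 11 markers of all cardiac muscle 1 was higher and 4 were lower, with a median difference of -0.070. The higher one, the calcium release channel gene Ryr2 (difference 0.23, limma adjusted p = 0.019), lost its call without atrial pool 2 or atrial pool 3. The lower ones numbered 1 with atrial pools 1 and 4 left out. The troponin gene Tnni3 had 12.79 ± 0.021 in the atrium and 12.79 ± 0.011 in the ventricle.

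Because Myl9 and Myh10 are also genes of smooth muscle and connective tissue cells, markers of those cells were set beside them. Of 12 smooth muscle markers, 11 were lower in the atrium and 1 was not called, while Myl9 was higher. The calls of Smtn and Mylk were lost in 6 and 7 of 8 fits that left out 1 pool. Among the lower ones were Tagln (difference -0.91, limma adjusted p = 3.3e-05) and Acta2, the smooth muscle actin (-0.75, 0.00027). The summed linear signal of the list was 8054 to 8213 in the atrial pools and 11365 to 11611 in the ventricular pools. This sum rests mostly on the brightest genes, Pln (12.07 in the atrium and 12.59 in the ventricle) and Des (10.73 and 11.06). Pln is also on the list of ventricular muscle markers, so neither the count nor the sum is a measure of smooth muscle alone. Cnn1 lay below log2 4 in both tissues. Of 10 fibroblast markers, 9 were higher in the atrium and 1 was not called (median difference 0.39), and their summed linear signal was 14664 to 17234 in the atrial pools and 11435 to 13144 in the ventricular pools. Mfap5 (difference 0.85, limma adjusted p = 0.00018) and Fbln1 (0.82, 1.6e-05) were the highest of these. Of 8 endothelial markers, 1 was higher and 6 were lower in the atrium, with a summed linear signal of 2777 to 2924 in the atrial pools and 3832 to 4273 in the ventricular pools. The receptor gene Kdr was lower in the atrium (difference -1.34, limma adjusted p = 2.1e-07), and Vwf, the von Willebrand factor gene, was higher (0.93, 9.3e-06).

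Of 13 skeletal muscle markers, 2 were higher and 3 lower in the atrium (median difference -0.11), and they are given because Myl1 is a skeletal muscle gene. Their summed linear signal was 1440 to 1808 in the atrial pools and 2383 to 2750 in the ventricular pools, with the Myh1 probe set included. Mybpc1 was higher, as given above, and so was Atp2a1, the fast skeletal calcium pump (4.35 ± 0.17 in the atrium and 4.07 ± 0.12 in the ventricle, limma adjusted p = 0.038), a call lost in 6 of 8 fits that left out 1 pool, those without pool 2, 3 or 4 of either tissue. Casq1, the skeletal calsequestrin, was lower (7.32 ± 0.10 in the atrium and 8.29 ± 0.17 in the ventricle, limma adjusted p = 1.4e-05). Tnnt3, Tnni2, Tnnc2 and Myog averaged below log2 4 in both tissues. Tnni2 was among the lower ones (3.78 ± 0.073 in the atrium and 3.99 ± 0.10 in the ventricle, limma adjusted p = 0.039). Its call was lost in 5 of 8 fits that left out 1 pool. The part of other cell types in the values of Myl9, Myh10 and Myl1 was not tested.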

How the data were processed

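Total RNA of 4 atrial and 4 ventricular pools (10 µg per array) was hybridised to Affymetrix rat expression arrays. The authors summarised the scanned probe intensities with RMA (background adjustment, quantile normalization and summary per probe set), and the deposited values are log2 signals. The version of RMA is not given in the sources used here. Quantile normalization gives all arrays nearly the same distribution, so levels are relative to the other probe sets. The number of arrays limits the precision. No array column was left unused.

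Gene names came from the platform annotation, brought up to date through gene IDs: 20826 probe sets carry 1 symbol, 436 several and 9780 none. For lists and ratios each gene was taken at the brightest of its probe sets, and genes of lists were named by rule: the 3 with the largest called difference in each direction, all genes of a list of up to 3, and markers used to check tissues or cell types. Thra, Thrb and Unc45b were added after their values were seen. The members and lists were chosen with earlier results of these data known.

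Atrial minus ventricular differences were fitted with limma 3.58.1 in R 4.3.3 over 31042 probe sets with Benjamini-Hochberg adjustment. The study used SAM at an FDR of 0.01%, which was run here as an alternative with 70 arrangements. On simulated data for this comparison (31042 probe sets, 200 changed), 49 of 50 probe sets changed by 2 fold were called. Shares were computed from linear signals. Paralog ratios were tested with a two-sided exact permutation test. Promoter and microRNA sequences are from RefSeq (GRCr8). Figures were made in Python 3.11.15 (matplotlib 3.10.9).

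Alternatives were the replicate number as a block, median centring, quantile normalization between arrays, trended and robust limma, SAM, the dimmest 40% of probe sets left out, other folds (1.5 and 3), each array left out and atrial arrays 1 and 4 left out together.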

Additional observations from a re-analysis of the deposited data

Results flagged for a closer look

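Each group of 4 pools was checked, over 30 groups, for a pool whose gap to the nearest other exceeded Dixon's 95% critical value, which chance alone exceeds in about 1 in 20 groups. In the atrium, pool 4 of Myh7 (1386993_at) lay apart at 6.68, above the 6.27 to 6.32 of the other atrial pools, with a gap of 0.874 of the range. In the ventricle, pool 4 of Myh6 (1368093_at) lay apart at 13.16, above 13.09 in each of the other ventricular pools, with a gap of 0.945 of the range.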

How the results depend on the processing

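Over the 15 probe sets and 15 alternatives, 216 of 225 values kept their direction and their side of the 0.05 threshold. Of the other 9, 2 became calls for the second Myh6 probe set and 3 were lost calls for 1396165_at, all given above. The remaining 4 changed sign without being called. With atrial arrays 1 and 4 left out, the brighter Myh6 probe set had a difference of 0.028 and the probe set 1398248_s_at had 0.024. With each array left out in turn, the brighter Myh6 probe set ranged from -0.021 to 0.016. With SAM in place of limma, the second Myh6 probe set was the single change at the 0.05 threshold, and Myl3 was added at the study thresholds.

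Whether same-numbered atrial and ventricular pools share rats was not stated. Their residual correlations were 0.134, 0.155, -0.148 and -0.188, which cannot settle it. Of the 4 atrial pools, 2 correlated best with their own number, while atrial pools 3 and 4 did so with ventricular pools 4 (0.225) and 3 (0.278). With the replicate number as a block, 6 probe sets were higher and 6 lower in the atrium. The paired ratio differences were unchanged at 3.41 (Myh6 minus Myh7), 9.74 (Myl7 minus Myl2) and 11.21 (Myl4 minus Myl3), but 4 pairs cannot give an exact permutation p under 0.125. Atrial arrays 1 and 4 were the highest for the brighter Myl2 probe set and for Myl3. With both left out, the ratios differed by 3.54, 12.41 and 12.41, and 6 arrays cannot give an exact permutation p under 0.0667. With all probe sets summed, the share of Myh7 differed by -6.89 percentage points, against -8.12 with 1 probe set. The count past the study thresholds was 8 with SAM, 8 at a fold of 1.5, 6 at a fold of 3, and 6 to 8 with each array left out in turn. Of 450 counts of called list genes under these alternatives, 34 differed from the main count by over 1.5 times, in 7 of 15 lists. Among them, the lower count of the light chain phosphorylation list was 1 in 7 of 8 fits that left out 1 array and with trended and robust limma, and that of the shared cardiac markers was 2 with the replicate block. Precision is limited by 4 pools per tissue and, at log2 4 and below, by the low end of the signal.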
